A study of Mus musculus with 12 samples.

Results

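Polycomb group proteins keep genes silent by marking and compacting chromatin, and 31 genes that encode their subunits or the enzymes that oppose them were followed here in mouse cerebral cortex. The 31 genes were taken by symbol from a list of Polycomb subunits, and all 31 were found among the 34193 gene rows of the deposited table. They comprise 6 core subunits of Polycomb repressive complex 2 (PRC2), 5 accessory subunits of PRC2, 16 subunits of PRC1, and 4 genes of opposing enzymes. All 31 averaged 10 or more normalised reads across the 12 libraries and were tested, as were 14397 genes in all.

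Total RNA was sequenced from the cortex of mice aged 8 weeks after removal of ribosomal RNA. The 6 control libraries came from mice labelled Nsd1 flx/flx; Nestin-cre -/-, and the 6 conditional knockout (cKO) libraries from mice labelled Nsd1 flx/flx; Nestin-cre +/-. Both groups thus carry the loxP-flanked alleles of Nsd1, a methyltransferase of lysine 36 on histone H3, and the groups differ in Cre, so that the presence of Cre and the loss of Nsd1 cannot be told apart. Nestin-Cre acts in neural progenitors and so reaches the neurons, astrocytes and oligodendrocytes that descend from them, but not microglia or most vascular cells, which the bulk tissue also holds. The labels give 3 males and 3 females per genotype and number the samples as biological replicates; animals are not named, and the p-values reflect only how these samples vary. Columns of the table were assigned by genotype alone, because 8 of 12 column numbers disagreed with the sex label of the sample of that number, as read from Y-linked genes.

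Nsd1 itself, checked as the targeted gene, averaged 4235 ± 850 normalised reads over control libraries and 3251 ± 299 over cKO libraries (SD; limma adjusted p = 0.383), a count over the gene that need not follow its deleted part. Libraries held 10.5 to 27.0 M reads, and 3 reads corresponded to 1.98 to 5.64 normalised reads. Y-linked genes had reads in libraries 1 to 3 of each genotype, while libraries 4 to 6 had none or single reads. Markers of excitatory cortical neurons summed to 29955 to 44539 normalised reads per library (6 genes, none absent). Those of proliferating cells, progenitors and immature neurons summed to 755 to 1099, mostly from Dcx, Nes and Sox11. Control libraries 4 and 5 stood apart, with 14.2% and 11.5% of their reads from mitochondrial ribosomal RNA against at most 6.00% elsewhere. Their oligodendrocyte markers summed to 113914 and 100123 normalised reads, against 61217 to 87262 in the other 10. cKO library 4 also stood apart: it was the highest or the lowest of the 12 libraries in 41.2% of all tested genes.

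PRC2 places the repressive methyl mark on lysine 27 of histone H3 (H3K27me3) through EZH1 or EZH2, held together by EED and SUZ12. PRC1 attaches ubiquitin to histone H2A through RING1 or RNF2, and its canonical forms bind H3K27me3 through CBX proteins and compact chromatin with PHC proteins. Methylation of lysine 36 on the same histone tail hinders PRC2, so the enzymes that write it, NSD1 among them, help to set where Polycomb marks can spread. In the cortex Polycomb complexes time the switch of progenitors from neurons to glia, and in mature neurons they hold developmental genes silent, where EZH1 largely takes over from EZH2.

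Promoter sequences in the RefSeq table (assembly GRCm38.p6, 250 bases before to 50 after each start) were found for 28 of the 31 genes, as 37 windows of 300 bases. Kdm6b, Pcgf1 and Cbx2 had none. The dinucleotide CG, the site of CG methylation, was counted on these letters, which read the same on both strands. The 37 windows held a median of 24 CG, against 7 over all 32851 windows of the table. Those 32851 windows belong to 27025 genes whatever their level in cortex, while the 31 genes were all expressed here. Whether the 37 windows differ from those of other expressed genes was not tested. The windows of Ezh1 and Ezh2 are shown because they belong to the alternative catalytic subunits of PRC2, whose ratio is followed through the libraries. CG is in capitals, each sequence is read 5′ to 3′ along the gene, and both genes lie on the minus strand.
Ezh1 promoter, chr11:101226414-101226713: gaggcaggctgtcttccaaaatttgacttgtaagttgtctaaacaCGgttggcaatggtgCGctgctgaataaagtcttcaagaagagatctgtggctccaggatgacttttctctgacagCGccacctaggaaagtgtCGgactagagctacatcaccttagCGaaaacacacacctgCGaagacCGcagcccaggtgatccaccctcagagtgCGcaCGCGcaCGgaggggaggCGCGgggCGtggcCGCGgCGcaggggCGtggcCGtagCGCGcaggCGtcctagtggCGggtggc
Ezh2 promoter, chr6:47594981-47595280: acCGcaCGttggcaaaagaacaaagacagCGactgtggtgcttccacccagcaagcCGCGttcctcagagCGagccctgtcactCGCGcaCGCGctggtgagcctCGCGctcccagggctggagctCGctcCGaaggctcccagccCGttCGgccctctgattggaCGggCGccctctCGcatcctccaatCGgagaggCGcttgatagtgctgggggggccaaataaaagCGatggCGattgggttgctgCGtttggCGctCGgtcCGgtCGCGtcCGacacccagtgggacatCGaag
The Ezh1 window held 23 CG, a number reached by 21.5% of all windows, and the Ezh2 window 31, reached by 10.6%. The series measured RNA, so nothing in these values says whether the sites are methylated. The positions are those of the RefSeq assembly, and the submitters' notes name mm9 for the reads.

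Levels of different subunits were compared per length, as normalised reads per kb of the exons annotated for each gene. No source used here says which parts of a gene the authors counted, so these levels are approximate. Cbx6, a chromodomain subunit of PRC1, had the highest level, at 1154 ± 44.8 per kb in the controls (SD, n = 6). Bap1, the deubiquitinase that removes the mark of PRC1, followed at 754 ± 58.9, and the histone chaperones Rbbp7 and Rbbp4, which also serve in other complexes, at 581 ± 55.4 and 329 ± 35.1. Phc2, which forms polymers that compact chromatin, stood at 196 ± 15.7. The control libraries of each of these 5 genes did not overlap those of the next in the order. From Bmi1 at 159.9 ± 8.95 per kb down to Pcgf5 at 15.96 ± 1.66 every neighbour in the order overlapped the next within the controls. The lowest levels were those of Cbx2 at 9.96 ± 2.34 and of Phf19, a Tudor-domain partner of PRC2, at 3.55 ± 0.97, and neither overlapped the gene just above it in the order. Within PRC2 the controls held Ezh1 at 146 ± 19.3 per kb and Ezh2 at 33.7 ± 12.8, Suz12 at 142 ± 9.65 and Eed at 49.3 ± 5.68.

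**Figure D1:**
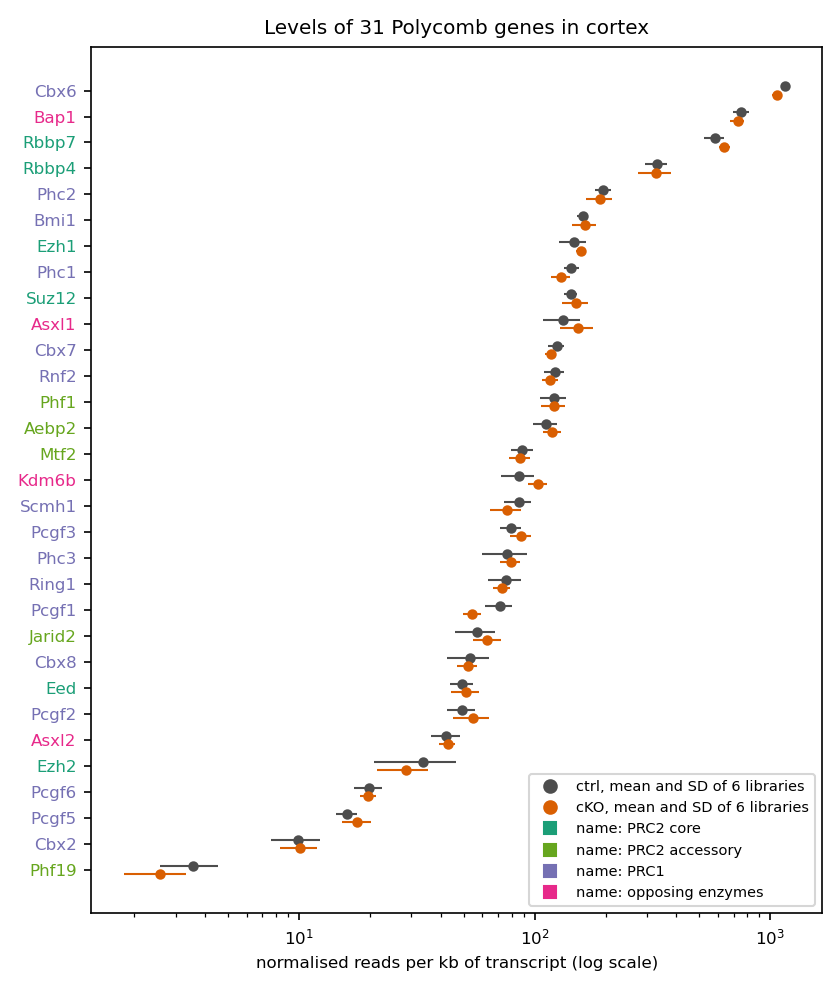
Level of each of the 31 genes in normalised reads per kb of transcript (log axis), as the mean and SD of 6 control (grey) and 6 cKO (orange) libraries, with names coloured by group. Cbx6 is highest and Phf19 lowest in both genotypes, and the control and cKO values of a gene lie close together.

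Setting cKO against control cortex asks whether transcripts of the Polycomb machinery differ when Nsd1 is targeted. No subunit passed the test: 0 of 31 were called higher or lower (limma, adjusted p under 0.05, smallest adjusted p = 0.185), where 0.834% of all tested genes were called. edgeR on the recovered reads also called 0 of 31, against 0.827% of all genes. The authors' deposited table likewise lists 0 of 31 at an adjusted p under 0.05, against 0.906% of the genes it tests. At an unadjusted p under 0.05 limma gave 2 of 31, Pcgf1 and Kdm6b, against 9.73% of all genes. No subunit had cKO and control libraries without overlap, which 1.01% of all genes had.

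The log2 fold changes ran from -0.44 for Phf19 to 0.27 for Kdm6b, with 16 genes above 0 and 15 below. Their median was 0.0031, and that over all tested genes -0.00069. The median was 0.06 for the 6 PRC2 core subunits, -0.0034 for the 5 accessory subunits, -0.03 for the 16 PRC1 subunits and 0.11 for the 4 opposing enzymes. The median of the PRC2 core rests on single libraries: it was -0.00082 without cKO library 4, 0.03 without control library 4 and 0.015 without control libraries 4 and 5. Under the alternatives the medians of the accessory and PRC1 subunits also crossed 0, and that of the opposing enzymes ran from 0.06 to 0.16. The 95% interval of the log2 fold change lay inside -0.5 to 0.5 for 27 of 31 genes, against 73.1% of all tested genes. The other 4 were Ezh2, Phf19, Pcgf1 and Kdm6b. In a tissue of many cell types, fewer cells of a type and less RNA per cell cannot be told apart.

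**Figure D2:**
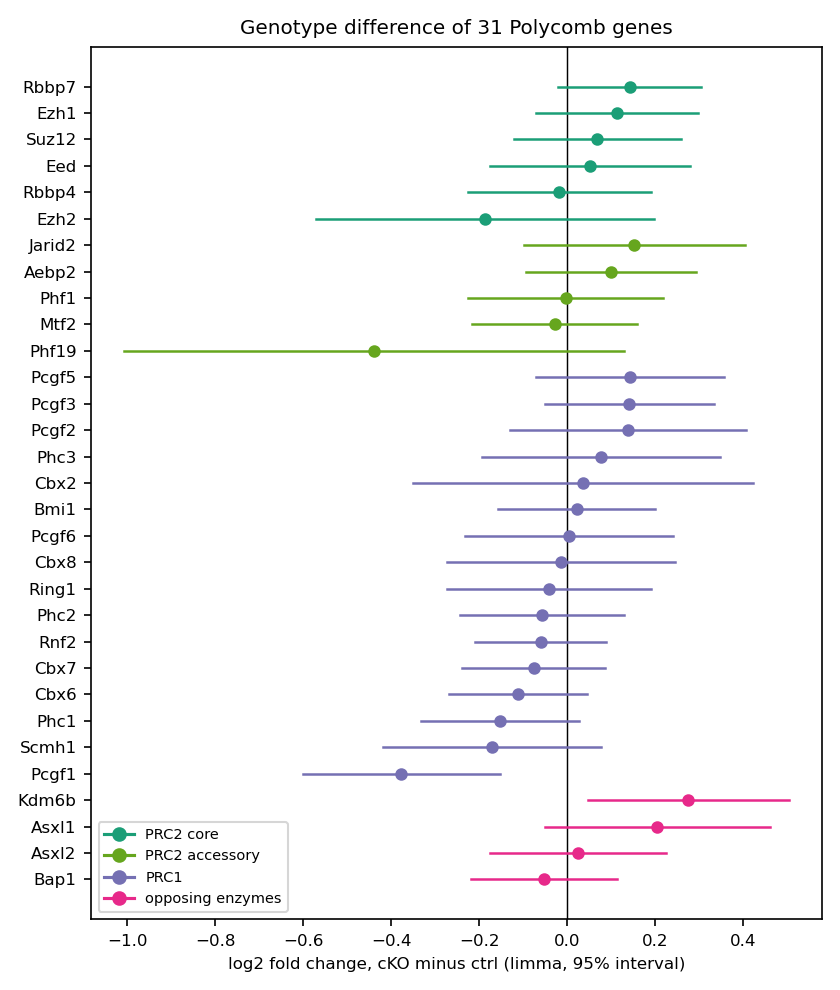
Log2 fold change (cKO minus control) of each of the 31 genes with its 95% interval from limma, grouped by complex. Only the intervals of Pcgf1 (-0.60 to -0.15) and Kdm6b (0.05 to 0.50) leave out 0, before adjustment over all tested genes.

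Among the catalytic subunits of PRC2, Ezh1 stood at 1283, 1197, 1050.2, 936, 928 and 1142 normalised reads in control libraries 1 to 6. In cKO libraries 1 to 6 it stood at 1159.7, 1127, 1167, 1283, 1158 and 1127. All 6 cKO libraries lay above the control median, but the groups overlapped, and control libraries 4 and 5 were the lowest (log2 fold change 0.11, SE 0.09, limma adjusted p = 0.620).

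Ezh2, the subunit that prevails in dividing cells, varied more among the controls. It stood at 132, 135, 216, 295, 347 and 225 normalised reads in control libraries 1 to 6. In cKO libraries 1 to 6 it stood at 164, 159.7, 200.5, 279.9, 167 and 166. Control libraries 4 and 5 and cKO library 4 were the highest, and the control range enclosed the cKO range (log2 fold change -0.19, SE 0.18, limma adjusted p = 0.692). Without control libraries 4 and 5 the log2 fold change of Ezh2 was 0.04, so the sign rests on them. The spread of Ezh2 among controls, a coefficient of variation of 37.98%, was the widest of the 31 genes, whose median was 12.9%. Markers of proliferating cells, progenitors and immature neurons summed to 1099 and 854 normalised reads in control libraries 4 and 5. They summed to 1034 in cKO library 4, against 755 to 1094 in the other libraries. Dcx, Nes and Sox11 made up most of that sum. Mki67 stood at 71.4 and 39.1 in control libraries 4 and 5 and at 30.8 in cKO library 4, against 20.6 to 51.3 elsewhere. Top2a stood at 43.2, 41.9 and 61.7 in the same order, against 34.8 to 58.1 elsewhere. The oligodendrocyte markers, high in control libraries 4 and 5, summed to 64677 in cKO library 4. The part of any of these markers in the level of Ezh2 was not tested.

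The ratio of Ezh1 to Ezh2 within a library does not depend on scaling between libraries. In normalised reads it was 9.69, 8.89, 4.86, 3.17, 2.68 and 5.07 in control libraries 1 to 6, and 7.06, 7.06, 5.82, 4.58, 6.92 and 6.81 in cKO libraries 1 to 6. The cKO ratios all lay within the control range. The mean log2 ratio differed by 0.30 between genotypes (exact permutation test, two-sided, p = 0.374, adjusted p = 0.899 over 12 pairs). It was -0.11 without control libraries 4 and 5, and with single libraries left out it ranged from 0.11 (without control library 5) to 0.48 (without control library 1). It was 0.16 without control library 4 and 0.46 without control library 2. Among libraries without Y-linked reads the difference was 0.77, and among those with them -0.18. The permutations ran over all 12 libraries and took no account of this split. Per kb, Ezh1 exceeded Ezh2 by a factor of 5.14 ± 2.62 over control and 5.72 ± 0.89 over cKO libraries (SD, n = 6 per genotype).

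**Figure D3:**
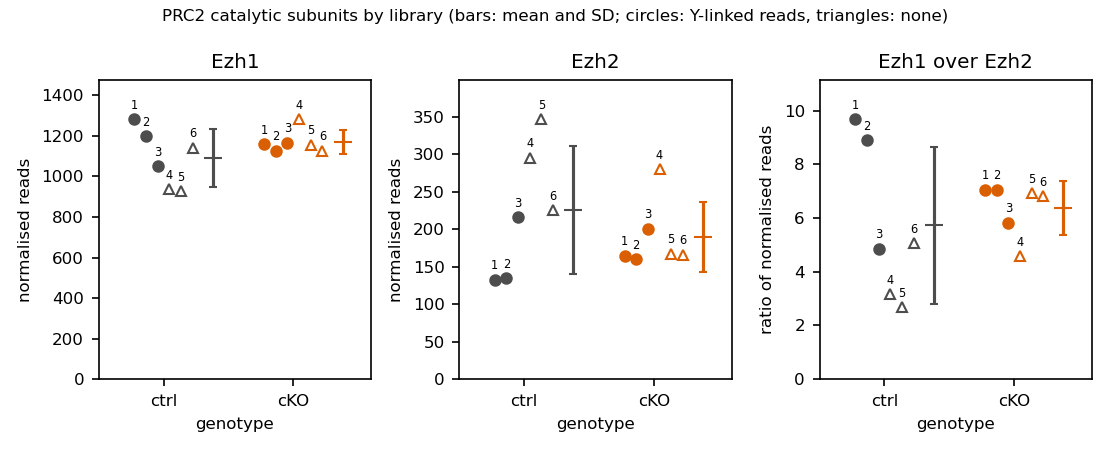
Normalised reads of Ezh1 and Ezh2 and their ratio in each library, numbered as in the deposited table, with the mean and SD of each genotype beside the points and filled circles for libraries with Y-linked reads. Control libraries 4 and 5 combine the lowest Ezh1 with high Ezh2, and their ratios of 3.17 and 2.68 are the lowest of the 12.

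Eed, the subunit that reads H3K27me3 and stimulates the enzyme, stood at 163, 192, 198, 162, 214 and 204 normalised reads in control libraries 1 to 6. In cKO libraries 1 to 6 it stood at 204, 164, 175, 239.6, 188 and 206. The groups overlapped, and cKO library 4 was the highest (log2 fold change 0.05, SE 0.11, limma adjusted p = 0.861).
Suz12, the scaffold of PRC2, stood at 737, 768, 645, 716, 653 and 704 in the controls and at 721, 729.7, 665, 930.0, 723 and 678 in the cKO. Apart from cKO library 4, the cKO values lay inside the control range (log2 fold change 0.07, SE 0.09, limma adjusted p = 0.770). Rbbp4 and Rbbp7 had log2 fold changes of -0.02 and 0.14. Rbbp7 ranged from 1507 to 1964 normalised reads in control libraries and from 1752 to 2032 in the cKO, with 6 of 6 cKO libraries above the control median (limma adjusted p = 0.527). Reads of such similar genes may be divided between them.

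The accessory subunits guide PRC2 to its sites. Jarid2 and Aebp2, which mark out one form of the complex, had log2 fold changes of 0.15 (SE 0.12) and 0.10 (SE 0.09). Jarid2 ranged from 458 to 703 normalised reads in control libraries and from 526 to 716 in the cKO. Mtf2 and Phf1, members of the Polycomb-like family of the other form, had log2 fold changes of -0.03 and -0.0034, with overlapping ranges of 434 to 573 against 438 to 572 for Mtf2 and 340.1 to 479.6 against 359.7 to 473 for Phf1. Phf19, the third member of that family, averaged 17.9 ± 4.91 normalised reads over control and 12.9 ± 3.75 over cKO libraries (SD, n = 6 per genotype). Its fold change had the widest interval of the 31 genes, from -1.01 to 0.13 (limma adjusted p = 0.561), at levels of 7.26 to 23.2 normalised reads, not far above the value of 3 reads. None of the 5 passed the test.

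In PRC1, neither ubiquitin ligase passed the test. Ring1 stood at 216, 253, 288, 210.4, 208 and 293 normalised reads in control libraries 1 to 6 and at 219, 234, 254, 216, 227 and 265 in cKO libraries 1 to 6. All cKO values lay inside the control range (log2 fold change -0.04, SE 0.11, limma adjusted p = 0.891). Rnf2, its partner paralog, stood at 447, 484, 463, 511, 524 and 582 in the controls and at 460.2, 455, 434, 492, 518 and 525 in the cKO. These groups overlapped as well (log2 fold change -0.06, SE 0.07, limma adjusted p = 0.737), with a 95% interval from -0.21 to 0.09. Per kb, Ring1 stood at 0.623 ± 0.104 of Rnf2 in the controls and at 0.627 ± 0.0705 in the cKO.

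The PCGF proteins decide which PRC1 variant forms. Pcgf1, the PCGF subunit of the variant that contains the CpG-binding protein KDM2B, had the smallest p of the 31 genes. It stood at 116, 96.8, 113, 137, 133 and 108 normalised reads in control libraries 1 to 6. In cKO libraries 1 to 6 it stood at 85.5, 84.4, 86.2, 94.9, 103 and 83.3. In 5 of 6 cKO libraries Pcgf1 lay below every control, and cKO library 5 alone overlapped, above control library 2. The log2 fold change was -0.38 (SE 0.11, limma unadjusted p = 0.00253), which did not pass over all tested genes (adjusted p = 0.185). It was -0.34 where Y-linked reads were found and -0.42 where they were not. Control libraries 4 and 5 were the highest for Pcgf1, and without them the log2 fold change was -0.29 (limma unadjusted p = 0.0245, adjusted p = 0.961). Pcgf1 has the shortest transcript of the list, and -0.29 was also found once a trend of each library with transcript length was removed (limma adjusted p = 0.419). The authors' deposited table gives Pcgf1 a log2 fold change of -0.38 (SE 0.13, adjusted p = 0.198).

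None of the other 5 PCGF genes passed the test. Bmi1, a partner of canonical PRC1, ranged from 599 to 677 normalised reads in control libraries and from 576 to 782 in the cKO. Pcgf2, its close relative in canonical PRC1, had 4 of 6 cKO libraries above the control maximum of 206 normalised reads and cKO library 4 below the control minimum of 141 (log2 fold change 0.14, SE 0.13, limma adjusted p = 0.673). Pcgf3 and Pcgf5, which form related variants, both had a log2 fold change of 0.14, with limma adjusted p of 0.572 and 0.597. Pcgf6, of a variant that acts with MGA and MAX, had 0.0031 (SE 0.11).

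The CBX subunits bind H3K27me3 and thereby carry PRC1 to PRC2 sites. Cbx6 ranged from 11537 to 12792 normalised reads in control libraries and from 10548 to 12020.1 in the cKO, where 3 of 6 libraries lay below every control (log2 fold change -0.11, SE 0.07, limma adjusted p = 0.575). Cbx7 ranged from 714 to 870.2 and from 709 to 812, with a log2 fold change of -0.08. Cbx8 ranged from 141 to 232 and from 156 to 208. Cbx2 was scarce, at 40.3, 41.4, 33.5, 54.5, 30.8 and 53.8 normalised reads in control libraries 1 to 6 and at 49.96, 42.9, 40.5, 29.7, 50.3 and 45.3 in cKO libraries 1 to 6. The groups overlapped (log2 fold change 0.03, SE 0.18, limma adjusted p = 0.954), and differences up to the interval of -0.35 to 0.42 could not be told apart from 0 with these libraries. The 3 PHC genes and Scmh1, which link PRC1 complexes through their SAM domains, had log2 fold changes of -0.15 for Phc1, -0.06 for Phc2, 0.08 for Phc3 and -0.17 for Scmh1. Without cKO library 4 these were -0.09 for Phc1, 0.01 for Phc2 and -0.07 for Scmh1. Scmh1 was at -0.10 without control library 4, and Phc3 at -0.0066 without control library 3 and -0.0021 without control library 6. All 6 cKO libraries lay below the control median for Phc1, at 571 to 763 normalised reads against 657 to 815 (limma adjusted p = 0.531).

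Among the opposing enzymes, Kdm6b, the demethylase JMJD3 that removes H3K27me3, stood at 579, 759, 457, 611, 601 and 579.7 normalised reads in control libraries 1 to 6. In cKO libraries 1 to 6 it stood at 612, 689, 814, 712, 757 and 724. All 6 cKO libraries lay above the control median, and control library 2 overlapped them. The log2 fold change was 0.27 (SE 0.11, limma unadjusted p = 0.0216) and did not pass over all tested genes (adjusted p = 0.460). It was 0.26 in the set holding Y-linked reads and 0.29 in the other. With single libraries left out it ranged from 0.20 without control library 3 to 0.36 without control library 2, and it was 0.23 without cKO library 3 and 0.28 without control libraries 4 and 5. The limma unadjusted p in these fits was 0.0601, 0.0016, 0.0578 and 0.0523 in the same order.

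Bap1 stood at 3397, 3203, 4024, 3444, 3520.2 and 3592 normalised reads in control libraries 1 to 6 and at 3309, 3293, 3563, 3754, 3074 and 3408 in cKO libraries 1 to 6. The groups overlapped (log2 fold change -0.05, SE 0.08, limma adjusted p = 0.796). Its cofactors Asxl1 and Asxl2, needed for its activity on histone H2A, had log2 fold changes of 0.20 (SE 0.12, limma adjusted p = 0.552) and 0.02 (SE 0.09). Asxl1 ranged from 828 to 1243 normalised reads in control libraries and from 891 to 1323 in the cKO.

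**Figure D4:**
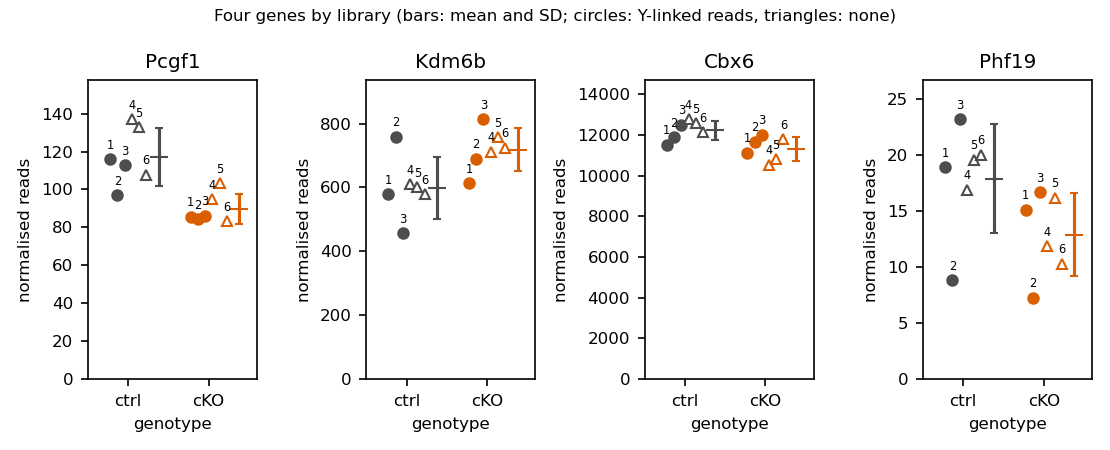
Normalised reads of Pcgf1, Kdm6b, Cbx6 and Phf19 in each library, with the mean and SD of each genotype, filled circles for libraries with Y-linked reads and open triangles for those without. Pcgf1 overlaps between genotypes only through cKO library 5 (103) and control library 2 (96.8), and Kdm6b through control library 2 (759).

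The balance between paralogs was examined through the log2 ratio of 12 pairs within each library. None of the 12 pairs passed the test (exact permutation test, two-sided, 0 of 12 at an unadjusted p under 0.05, smallest p of the pairs 0.145, adjusted p = 0.899), where 0.00216 is the smallest p that 6 against 6 libraries allow. That p of 0.145 belonged to Phf1 over Phf19, with a difference of 0.44, which was 0.60 without control library 2 (exact permutation test, p = 0.0281, adjusted p = 0.234) and 0.27 without cKO library 2. Asxl1 over Asxl2 differed by 0.18, with 0.37 among libraries without Y-linked reads and -0.01 among those with them. This difference was 0.02 without control libraries 4 and 5, and 0.11 without control library 4. Rbbp4 over Rbbp7 differed by -0.16, with -0.26 and -0.06 in the same order. This difference was -0.06 without control libraries 4 and 5, and -0.25 without control library 2 (exact permutation test, p = 0.039, adjusted p = 0.234). Pcgf3 stood at 5.01 ± 0.454 times Pcgf5 per kb in the controls and at 4.99 ± 0.333 times in the cKO.

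The genotype effect was then compared between libraries with and without Y-linked reads, in 4 groups of 3. The difference of the effects was called for 0 of 31 subunits (limma, smallest adjusted p = 0.562) and for 0% of all tested genes. At an unadjusted p under 0.05 it was found for 0 of 31 subunits and 8.77% of all genes. By edgeR it was called for 0 of 31 and for 0 of all tested genes. The log2 fold changes had the same sign in both sets for 17 of 31 genes, or 54.8%, against 52.8% of all tested genes. For PRC2 core subunits the same sign was found in 1 of 6 genes: the median was 0.14 without Y-linked reads and -0.02 with them. Ezh2 had the largest difference, with -0.52 without and 0.15 with Y-linked reads (difference 0.67, SE 0.33, limma adjusted p = 0.562). The set without Y-linked reads holds control libraries 4 and 5 and cKO library 4.

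Between libraries with and without Y-linked reads, across genotypes, 0 of 31 subunits were called (limma, smallest adjusted p = 0.375), against 0.0764% of all tested genes. With edgeR 0 of 31 were called, against 11 of all tested genes. At an unadjusted p under 0.05 there were 2 of 31, against 11.7% of all genes. These were Ezh2, at a mean of 168 normalised reads with and 247 without Y-linked reads, and Rnf2, at 457 and 525. Rbbp7, which lies on the X chromosome, had 1812 and 1737.

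An X-linked demethylase of H3K27me3 and its Y-linked relative, which belong to the wider pathway and not to the 31, were called by this split. Kdm6a, the X-linked UTX, stood at 401, 453, 394, 487, 411 and 429 normalised reads in the libraries with Y-linked reads (controls 1 to 3, then cKO 1 to 3). In those without, it stood at 669, 609.5, 582, 578, 664 and 590.4 (controls 4 to 6, then cKO 4 to 6). The sets did not overlap, and the level was 1.43 times as high without Y-linked reads (log2 difference with minus without -0.52, SE 0.08, limma adjusted p = 0.0116). Uty, its Y-linked relative, stood at 351 to 392 in the libraries with Y-linked reads and at 0 to 1.03 in those without, and is itself a gene of the split. By genotype the log2 fold change of Kdm6a was 0.03 (SE 0.08, limma adjusted p = 0.885).

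**Figure D5:**
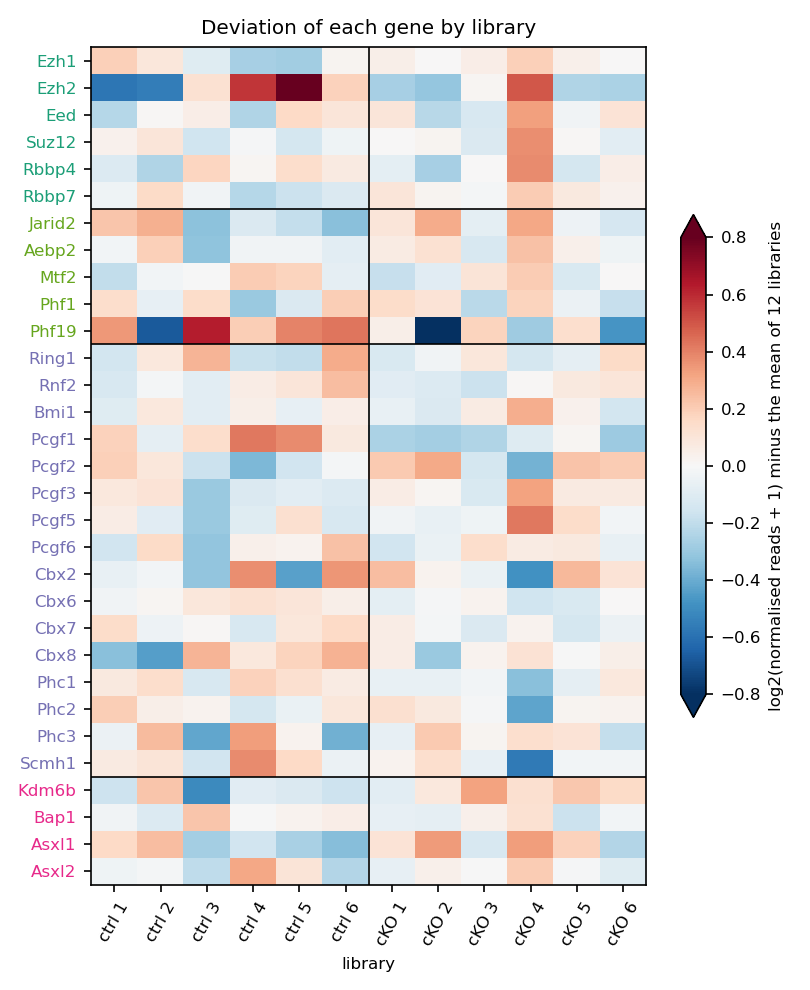
Deviation of log2(normalised reads + 1) from the mean of the 12 libraries for each gene (rows, grouped by complex) and library (columns, controls on the left), in colour from -0.8 to 0.8. cKO library 4 holds the highest or lowest value for 16 of the 31 genes, and Ezh2 is highest in control library 5.

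cKO library 4 was the highest or lowest of the 12 for 16 of 31 subunits, or 51.6%, against 41.2% of all tested genes. It was the highest for 10 of them and the lowest for 6. The PRC2 core genes lay on average 0.33 above their 12-library mean in that library on the log2 scale, and between -0.13 and 0.09 in the other 11. In cKO library 4 the same average was 0.13 for the accessory subunits, -0.07 for PRC1 and 0.20 for the opposing enzymes. A further fit left out control libraries 4 and 5 and cKO library 4, a choice made after the values were seen. It called 0 of 31 subunits, against 102 of all 14397 tested genes. The medians of the 4 groups in that fit lay between -0.03 and 0.12.

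Other genes of the pathway were grouped by role. Of 31 tested further Polycomb genes, such as the KDM2B, BCOR and RYBP components of variant PRC1, 0 were called by limma, against 0.834% of all tested genes, with 18 above and 13 below 0 and a median log2 fold change of 0.04. Of 10 tested further opposing genes 0 were called by genotype, with a median of 0.01. Of 140 developmental regulators known in general as Polycomb targets, 21 reached a mean of 10 normalised reads and 0 were called. Of these 21, 5 lay above 0 and 16 below (23.8% above, against 49.9% of all tested genes), with a median of -0.12. For 7 of them the 95% interval lay inside -0.5 to 0.5. Their sign was the same in both library sets for 8 of 21, or 38.1%, against 52.8% of all tested genes. The median of their mean levels was 51.1 normalised reads, against 396 over all tested genes. Which cells hold their transcripts, such as vascular cells that Nestin-Cre mostly does not reach, was not tested. In 1 of the 21 the genotypes did not overlap, against 1.01% of all tested genes. This was Bmp4, named after its values were seen, at 57.1 ± 5.13 normalised reads over control and 45.1 ± 6.31 over cKO libraries (SD; log2 fold change -0.34, limma adjusted p = 0.476). Genes under a mean of 10 normalised reads, among them every Hox gene of the 140, were not tested.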

How the data were processed

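RNA of 12 cortex libraries (6 per genotype) was analysed from 1 deposited table. Of tools, STAR, Bowtie, bedtools and Trim Galore appear in the submitters' processing notes without roles, and of builds mm9. Per the file headers, the authors deposited DESeq2-normalised counts, a signal in which each gene's reads are divided by a size factor per library. They also deposited the log2 fold change, its standard error and Wald statistic (score values), and p-values. Every value above 0 (100%) was a whole number of reads within 0.01, and edgeR on those reads called 119 genes. No per-sample column was left unused (0).

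The main test was limma 3.58.1 (R 4.3.3) with an intensity trend on log2(value + 1), on 14397 genes with a mean of at least 10, with terms for genotype and for Y-linked reads (over 100 summed normalised reads of Ddx3y, Eif2s3y, Kdm5d and Uty). Fold changes are on that scale, and p-values were adjusted over all tested genes by Benjamini-Hochberg at 0.05. A DESeq2 1.42.0 refit with this split matched the deposited log2 fold changes within 9.2e-09. edgeR 4.0.16, DESeq2, other pseudocounts, filters, scalings, and fits without single libraries were alternatives. Lengths are unions of annotated exons (GENCODE vM21), matched for 31 of 31 genes. All 31 genes are named, with every library printed for those of main role or an unadjusted p under 0.05, and other pathway genes are named if called. The members and lists were chosen with earlier results of these data known. Scripts were tested on simulated data.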

Additional observations from a re-analysis of the deposited data

Results flagged for a closer look

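Within each genotype, the highest and lowest of the 6 libraries were compared with the nearest other library, for the 31 genes and the 12 paralog ratios. In 7 of 86 such groups the gap exceeded 0.625 of the group's range (Dixon's 95% limit for 6 values), where chance gives about 1 in 20. In 5 of the 7 the library was cKO library 4. It was the highest cKO library for Ezh1 at 1283 normalised reads (next 1167), for Ezh2 at 279.9 (next 200.5) and for Suz12 at 930.0 (next 729.7). It was the lowest for Phc2 at 1011 (next 1346) and for Scmh1 at 418 (next 592). cKO library 2 was the lowest for Cbx8, at 156 normalised reads (next 191). Control library 2 had the highest ratio of Phf1 to Phf19 among controls, at 45.4 (next 24.3).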

How the results depend on the processing

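Under all 24 alternatives 0 of 31 genes were called, with 0.115 the smallest adjusted p (limma, Kdm6b without control library 2), and the numbers of called paralog pairs, effects that differ between library sets and Y-split calls were 0 wherever refitted. Over all genes 120 were called, 150 without a filter, 178 by DESeq2, which tested 19650 genes (159 of the 178 are among the 14397), and 58 with a minimum mean of 50. The median log2 fold change ranged from -0.02 to 0.09 for PRC2 core, -0.05 to 0.05 for accessory, -0.06 to 0.01 for PRC1 and 0.06 to 0.16 for opposing genes. The sign changed under some alternative for 16 of 31 genes and was kept for 15; the cause was not tested. Pcgf6 had -0.00032 by DESeq2, -0.00055 with TMM scaling and -0.0041 by edgeR. With the length trend removed, log2 fold changes were 0.022 for Phf1, -0.0010 for Pcgf6, 0.0072 for Cbx8, -0.029 for Phc3 and -0.074 for Asxl2. Without control libraries 4 and 5 the log2 ratio differences were -0.11 for Ezh1/Ezh2, 0.17 for Mtf2/Phf1, -0.11 for Ring1/Rnf2, 0.019 for Cbx6/Cbx7, -0.022 for Cbx2/Cbx8 and 0.0049 for Phc1/Phc2. The fold changes there were 0.037 for Ezh2, -0.0041 for Eed, 0.045 for Mtf2, -0.0018 for Bmi1 and -0.016 for Pcgf6. Without cKO library 4 as well, chosen after seeing the data, the ratio differences were -0.015 for Ezh1/Ezh2, 0.16 for Mtf2/Phf1, -0.079 for Ring1/Rnf2 and 0.053 for Cbx6/Cbx7. The fold changes were -0.019 for Ezh1, -0.035 for Eed, -0.017 for Suz12, 0.016 for Mtf2, -0.038 for Bmi1, -0.014 for Pcgf6 and 0.024 for Scmh1. The count among the 31 genes at an unadjusted limma p under 0.05 was 1 in both these fits and 5 without control library 2. The share of all tested genes at that p was not computed for these fits, so no reading is given to the counts.

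Leaving out 1 library at a time, the ratio differences ranged from -0.096 to 0.072 for Mtf2/Phf1, -0.039 to 0.090 for Ring1/Rnf2, -0.045 to 0.037 for Pcgf3/Pcgf5, -0.074 to 0.010 for Cbx6/Cbx7 and -0.070 to 0.17 for Cbx2/Cbx8. Fold changes ranged from -0.012 to 0.091 for Eed, -0.0024 to 0.10 for Suz12, -0.085 to 0.038 for Rbbp4, -0.070 to 0.0091 for Mtf2, -0.060 to 0.054 for Phf1, -0.087 to 0.024 for Ring1 and -0.034 to 0.064 for Bmi1. They ranged from -0.053 to 0.052 for Pcgf6, -0.065 to 0.15 for Cbx2, -0.087 to 0.071 for Cbx8, -0.087 to 0.013 for Phc2, -0.0066 to 0.16 for Phc3 and -0.035 to 0.085 for Asxl2. With the replicate block 0 of 31 genes were called and 118 over all genes. Same-numbered libraries correlated at 0.34, 0.50, 0.35, 0.09, 0.09 and 0.26 for numbers 1 to 6, and 7 of 12 correlated best with their own number. No label names the numbers as pairs, so the main fit held no pairing, and only the replicate block took the numbers into account. Phf19 and Cbx2 had the fewest reads for their length.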
